A study of Mus musculus with 4 samples.

Results

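Transcripts of the ERBB receptors and of the ligands that bind them were measured in mouse cardiomyocytes after a small interfering RNA against 1 of the receptors. The set held 10 genes, the 4 receptors Egfr, Erbb2, Erbb3 and Erbb4 and the 6 ligands Nrg1, Nrg2, Hbegf, Tgfa, Egf and Epgn. They were taken by symbol: every array probe whose RefSeq accession belongs to one of them was read, which gave 13 of 39429 probes and 10 of the 20886 genes that could be named.

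ERBB proteins are receptor tyrosine kinases that signal in pairs. Binding of a ligand opens the outer part of Egfr, Erbb3 or Erbb4 for pairing, whereas Erbb2 has no known ligand and serves as the partner of the others. In the heart, neuregulin 1 from the endocardium and the small vessels acts on Erbb4 and Erbb2 of the muscle cells, where the pathway is known for its part in trabeculation, growth and survival.

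The cells were cardiomyocytes grown from CGR8, a mouse embryonic stem cell line. A scrambled RNA (siScr) or an RNA against Erbb4 (siErbB4) was transfected with the Pepmute reagent for 48 hours, and the culture medium of all samples held 2% serum. Each group held 2 samples, and the 4 samples were read on separate 1-colour Agilent arrays of 1 slide. Whether the 2 samples of a group came from separate cultures is not given in the sources used here, so errors and p-values hold no more than the spread of these samples, which may be technical. Neither the sequence of the RNAs nor a purification of the cardiomyocytes is given there. Groups follow the titles and the transfection field. Other labels of the siErbB4 samples do not match these, since both descriptions mention the scrambled RNA and 1 source name, of replicate 2, has ErbB5.

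A level below is the log2 processed signal minus the 75th percentile of the same array, and for single genes it is compared between arrays for 1 probe. Only the summed levels of the cell type lists add up different probes, so the brightest probes weigh most in them. That percentile lay between 878 and 989 scanner units, and 64.8% to 68.5% of probes were flagged well above background. The precision is limited by the number of arrays. All 12 cardiomyocyte markers examined, among them Tnnt2, Myh6, Actn2 and Nkx2-5, were well above background on all 4 arrays. Markers of other cells were present too: 9 of 10 fibroblast genes and all 6 genes of undifferentiated stem cells passed the same filter. In such bulk RNA, fewer cells of a type and less RNA per cell cannot be told apart.

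Erbb4, the receptor against which the RNA was directed, was at the edge of detection. Its single probe gave a processed signal of 9.02 and 11.9 in siScr replicates 1 and 2 and of 2.83 and 15.0 in siErbB4 replicates 1 and 2. The lowest and the highest of the 4 values thus both came from the siErbB4 group, and the groups overlapped. The scanner software flagged the probe as well above background only in siErbB4 replicate 2. The background-subtracted signal, in which the software has replaced no weak signals, was 8.89, 11.9, 2.75 and 15.1 in the same order. For this probe it was close to the processed signal. The array carries negative-control spots that match no mouse transcript, and 146 to 153 of them could be used on each array. On this scale none of them reached the Erbb4 probe on either siScr array or in siErbB4 replicate 2, and 1 of 150 did in siErbB4 replicate 1. On the processed scale 24 of the 150 did on that array. In a fit of all 32388 features with no filter on dim probes, siErbB4 minus siScr came to -0.68 in log2 units (standard error, SE, 0.90), and its 95% interval, -3.22 to 1.86, holds large decreases and large increases alike. The probe therefore measures neither a knockdown nor its absence. The adjusted p by limma was 1.00. Between the same-numbered arrays the difference was -1.60 for replicate 1 and 0.24 for replicate 2. Every direction given here accordingly rests on the labels.

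**Figure D1:**
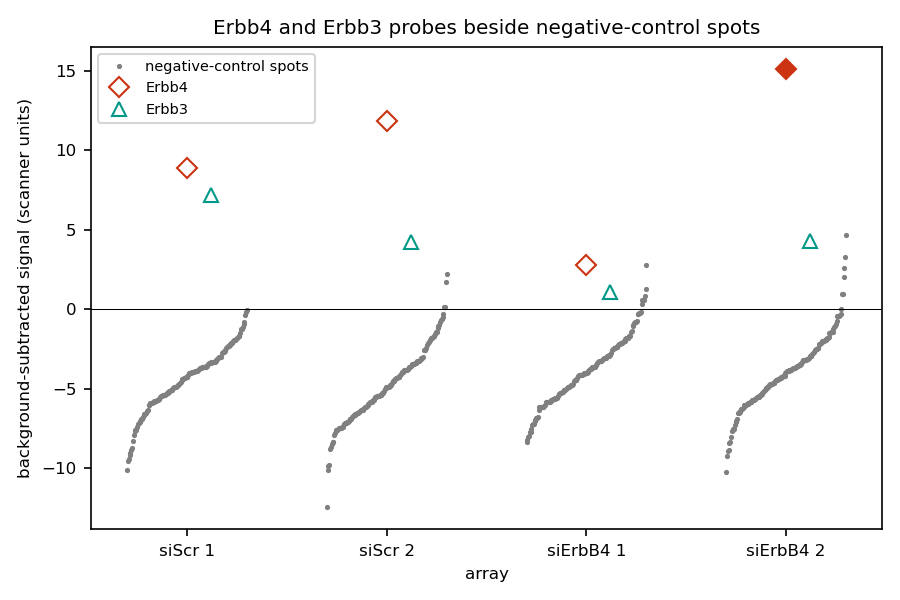
Background-subtracted signal in scanner units of the Erbb4 probe (diamonds) and the Erbb3 probe (triangles) on each of the 4 arrays, beside the negative-control spots sorted by value (grey); filled symbols were flagged well above background. Erbb4 lies above every negative-control spot on 3 arrays and is filled only in siErbB4 replicate 2, at 15.1.

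Erbb3, which binds neuregulins but has a weak kinase of its own and is textbook-known in neural crest, glia and valve mesenchyme, was not well above background on any array. The processed signals were 6.79 (siScr replicate 1), 4.02 (siScr replicate 2), 2.42 (siErbB4 replicate 1) and 4.02 (siErbB4 replicate 2). In siErbB4 replicate 1 the underlying background-subtracted signal of 1.08 was not significantly positive, and 2 of the 150 negative-control spots were as high. The log2 difference of -0.76 in the fit with no filter (95% interval -1.81 to 0.30; limma) compares signals that were not well above background in either group, and it is not given as a fold.

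Erbb2, the partner receptor, was read by 1 probe printed in 10 spots on each array, and its level was clear of background on all 4. Its level was 0.05 and 0.33 in siScr replicates 1 and 2 and -0.09 and 0.33 in siErbB4 replicates 1 and 2. Both replicate 2 arrays were higher than both replicate 1 arrays, and the groups overlapped. The difference between groups was -0.07 (SE 0.22, 95% interval -0.67 to 0.53, n = 2 a group; limma), which as a ratio runs from 0.627 to 1.44. The repeat spots were far tighter than that, with an SD of 0.01 to 0.05 over the 8 to 10 spots used on an array, so the replicate arrays differed by more than the spots of 1 array did.

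Egfr, the receptor of EGF, TGF-alpha and their relatives, varied most between arrays among the members that were well above background on all 4. It was read by 3 probes. The probe for accession NM_207655, also printed in 10 spots, gave a level of 0.33 in siScr replicate 1, -1.02 in siScr replicate 2, 0.31 in siErbB4 replicate 1 and -0.81 in siErbB4 replicate 2. Replicate 1 was thus 2.54-fold above replicate 2 in the siScr group and 2.17-fold in the siErbB4 group, while the group means, -0.35 ± 0.95 and -0.25 ± 0.79 (SD, n = 2 each), nearly coincided. The difference between groups was 0.09 (SE 0.63, 95% interval -1.64 to 1.82; limma), and it changed sign when single arrays were left out (-0.58 to 0.76). Over 10 spots the SD within an array was 0.04 to 0.07, far below the distance between replicate arrays.

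The other Egfr probes, a pair for accession NM_007912, followed the same split by replicate, but the distance between the replicate 1 arrays was larger with them. They gave levels of -1.73 and -1.62 in siScr replicate 1, -3.56 and -3.28 in siScr replicate 2, -2.55 and -2.44 in siErbB4 replicate 1 and -3.64 and -3.36 in siErbB4 replicate 2. Replicate 1 was again the higher array in each group. Between the replicate 1 arrays, siErbB4 minus siScr was -0.82 with each NM_007912 probe and -0.02 with the NM_207655 probe. Between the replicate 2 arrays the values were -0.08 for both NM_007912 probes and 0.20 for the other. None of the 3 differences between groups passed the test, at -0.45 (SE 0.78), -0.45 (SE 0.70) and 0.09 (SE 0.65) in a fit of every probe, each with an adjusted limma p of 1.00. The difference between the probes was not tested.

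**Figure D2:**
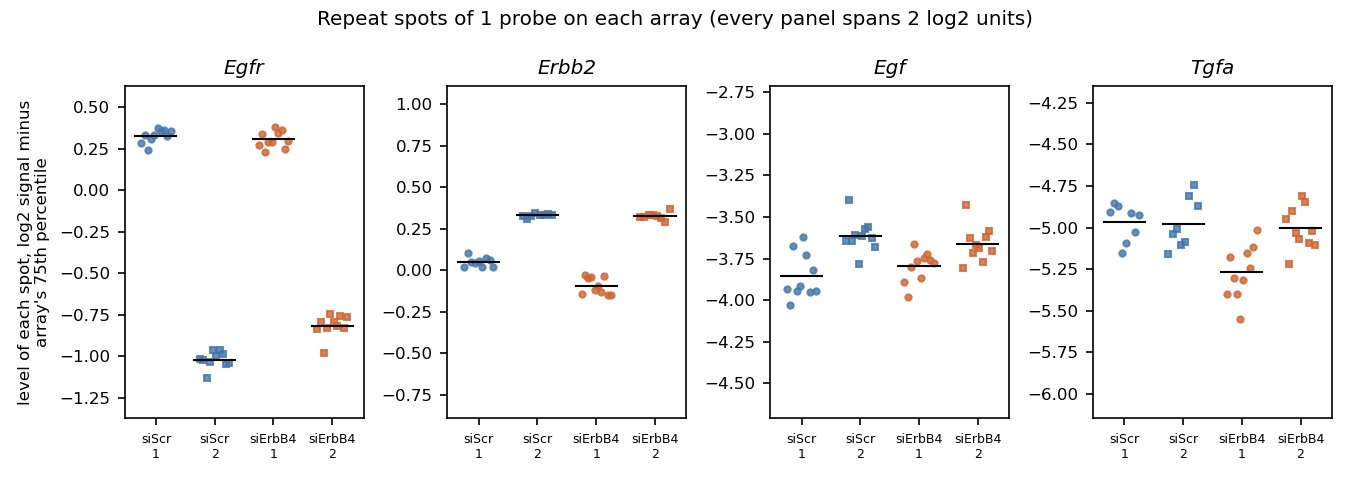
Level of every repeat spot (log2 signal minus the array's 75th percentile) for the 4 members printed in 10 spots on each array, outlier-flagged spots left out, with the mean of each array as a line; blue is siScr, orange siErbB4, circles replicate 1 and squares replicate 2. For Egfr the spots of both replicate 1 arrays lie above 0.2 and those of both replicate 2 arrays below -0.7.

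Among the ligands, the neuregulins bind Erbb3 and Erbb4. Nrg1 gave a clear signal, with levels of 1.74 and 1.31 in siScr replicates 1 and 2 and 1.72 and 1.23 in siErbB4 replicates 1 and 2. Both replicate 1 arrays were higher than both replicate 2 arrays, by 1.34-fold in siScr and 1.41-fold in siErbB4. The groups overlapped, and the difference between them was -0.05 (SE 0.26, 95% interval -0.77 to 0.67; limma), a ratio of 0.585 to 1.60.

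Nrg2 was dim and had a probe pair for the same accession. The brighter probe was at -6.61 and -4.92 in siScr replicates 1 and 2 and at -5.56 and -4.90 in siErbB4 replicates 1 and 2. Only siScr replicate 1, the lowest of the 4, was not well above background, and the groups overlapped. Its difference of 0.53 (SE 0.65, 95% interval -1.26 to 2.32; limma) moved with single siScr arrays: without siScr replicate 1 it was -0.31, and without siScr replicate 2 it was 1.37 against the siScr array that was not well above background. With normexp background correction of the raw median signals it was -0.04. The probe passed the filter only through the siErbB4 arrays, the group in which it was higher. The dimmer probe was not well above background on any array, at 3.18 and 6.53 in siScr and 2.79 and 6.53 in siErbB4.

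The other 4 ligands belong to the EGF family proper. Hbegf, whose product binds Egfr and Erbb4 and is made as a membrane-bound precursor, was bright, with levels of 2.78 (siScr replicate 1), 2.26 (siScr replicate 2), 2.45 (siErbB4 replicate 1) and 2.33 (siErbB4 replicate 2). The siErbB4 values lay between those of siScr, and the difference was -0.13 (SE 0.23, 95% interval -0.76 to 0.50; limma).

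Egf itself was at -3.86 and -3.61 in siScr replicates 1 and 2 and at -3.80 and -3.66 in siErbB4 replicates 1 and 2. It was the steadiest of the 8 members tested, with a range of 0.24 over the 4 arrays and a difference between groups of 0.01 (SE 0.16, 95% interval -0.43 to 0.45; limma). Its 10 spots had an SD of 0.09 to 0.14 on each array.

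Tgfa, a ligand of Egfr, was weak but flagged above background on all arrays, at -4.97 and -4.98 in siScr and -5.27 and -5.004 in siErbB4. It was the only member tested whose groups did not overlap, 1 of 8, where 29.0% of all 20726 features tested did not. The difference was -0.16 (SE 0.16, 95% interval -0.59 to 0.27; limma), and between the replicate 2 arrays it was -0.03. The SD over the 8 to 10 Tgfa spots used on an array was 0.11 to 0.16.

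Epgn, which encodes the Egfr ligand epigen, gave a processed signal of 16.0 and 24.9 in siScr replicates 1 and 2 and 15.5 and 21.4 in siErbB4 replicates 1 and 2. Both replicate 2 arrays were higher. The difference was -0.15 (SE 0.35, 95% interval -1.12 to 0.83; limma).

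**Figure D3:**
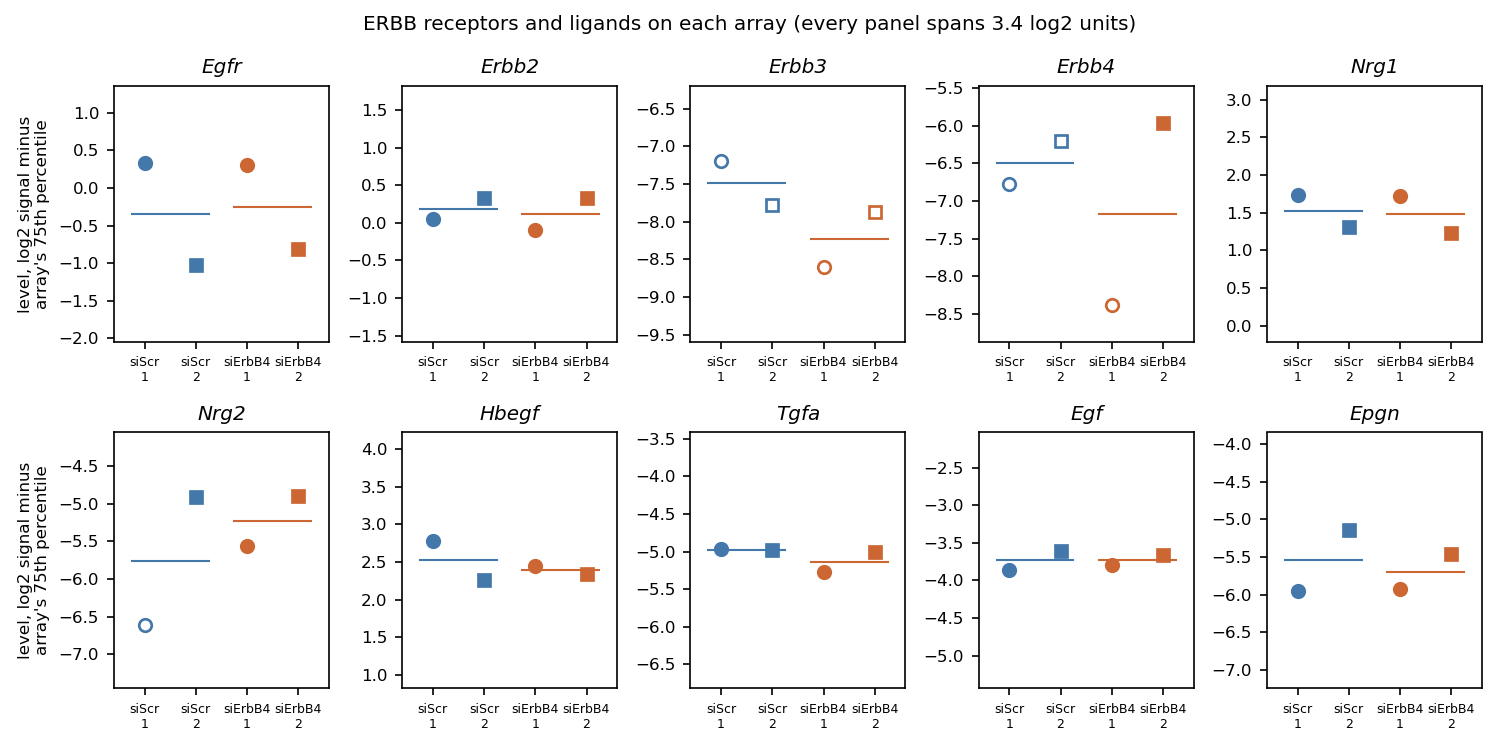
Level of the 10 genes on each array (log2 signal minus the array's 75th percentile, 1 probe a gene), with blue for siScr, orange for siErbB4, circles for replicate 1, squares for replicate 2, open symbols where the probe was not well above background and lines for the mean of 2 arrays. All panels span the same number of log2 units; in Egfr and Nrg1 the circles lie above the squares, and in Erbb2 and Epgn below them.

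Over the whole set, 8 of the 10 genes passed the filter on dim probes, which asks for a signal well above background on both arrays of a group, and were tested. At an adjusted limma p under 0.05, 0 of them were called, and 0 had an unadjusted p under 0.05. The background was as empty, with 0% of 20726 features called and 1.77% at an unadjusted p under 0.05. No tested member differed by 1 or more in size, which 0.584% of all features did. Of the 8 differences 5 were negative and 3 positive, with a median of -0.06 beside -0.01 over all features. Nrg2, among the positive ones, passed the filter only through the siErbB4 arrays. An exact permutation test of 2 arrays against 2 could not give a two-sided p below 0.333. The widths differed between genes: the 95% intervals of Erbb2, Nrg1, Hbegf, Tgfa and Egf left out any change of 2-fold or more (the widest reaching ratios of 0.585 and 1.60), whereas those of Egfr, Nrg2 and Epgn did not. This holds for the fit on group alone. With the replicate number added as a block, the log2 intervals were -0.25 to 0.43 for Egfr, -0.53 to 0.23 for Epgn and -0.20 to 1.26 for Nrg2. Of the cell type lists, all 9 fibroblast genes (median -0.45), all 4 smooth muscle genes (median -0.19) and all 3 macrophage genes tested (median -0.42) had a negative difference between groups. So did 8 of 12 cardiomyocyte genes (median -0.06), 4 of 5 endothelial genes (median -0.19), 3 of 4 neural genes (median -0.14) and 3 of 6 epithelial genes tested (median 0.11). A positive difference was found at 5 of 6 stem cell genes (median 0.50, summed levels 22.6 and 23.7 in siScr and 36.3 and 26.9 in siErbB4 in multiples of the 75th percentile). That sum was made up mostly of Dppa5a, and Nanog gave -0.13. Pou5f1 gave the largest difference, 0.92, but its level in siErbB4 replicate 2 (-1.45) was below that in siScr replicate 2 (-1.33). The groups did not overlap at 1 of the 9 fibroblast genes, 0 of the 4 smooth muscle genes, 1 of the 3 macrophage genes and 4 of the 6 stem cell genes, beside 29.0% of all features. In the other lists this held for 0 of 12 cardiomyocyte, 1 of 5 endothelial, 0 of 4 neural and 3 of 6 epithelial genes. The part of these cells in the members' differences was not tested.

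**Figure D4:**
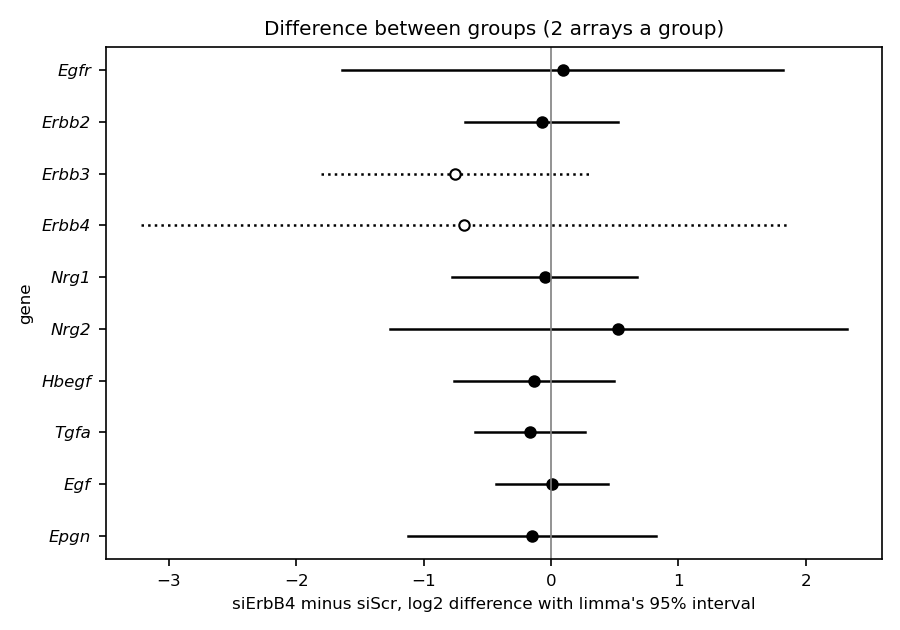
Log2 difference between groups (siErbB4 minus siScr) of each gene with limma's 95% interval; open symbols and dotted lines mark Erbb3 and Erbb4, which were too dim for the filter and come from the fit with no filter. Every interval crosses 0, from the narrow ones of Egf and Tgfa to that of Erbb4, which runs from -3.22 to 1.86.

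The spread between replicates was larger than the difference between groups for most of the set. At 6 of the 8 members tested the group difference was smaller in size than the replicate difference of either group, which held for 50.8% of all features. As replicate 2 minus replicate 1, Egfr gave -1.35 in siScr and -1.12 in siErbB4, and in each group more than 96% of the features tested (96.4% and 96.1%) had a smaller difference. Nrg1 gave -0.43 and -0.50, Erbb2 0.28 and 0.42, Epgn 0.81 and 0.47 and Egf 0.24 and 0.14. Hbegf gave -0.53 and -0.11, Tgfa -0.01 and 0.26, and Nrg2 1.69 and 0.66, the first of these against a siScr array where Nrg2 was not well above background. The sign was the same in both groups at 7 of the 8 members and at 70.3% of all features.

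Separation by replicate number was common among all genes. Both replicate 1 arrays lay above both replicate 2 arrays at 3 of the 8 members (Egfr, Nrg1 and Hbegf), against 26.0% of all features, and below them at 4 (Erbb2, Nrg2, Egf and Epgn), against 29.4%. Egfr alone among the members tested differed by 1 or more in the same direction in both groups, where 3.23% of all features did and 1.62% in the direction of Egfr. Nothing in the labels says what the replicate number stands for. The growth protocol gives a pair of incubation times without saying which samples had which, so their part in these differences was not tested.

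**Figure D5:**
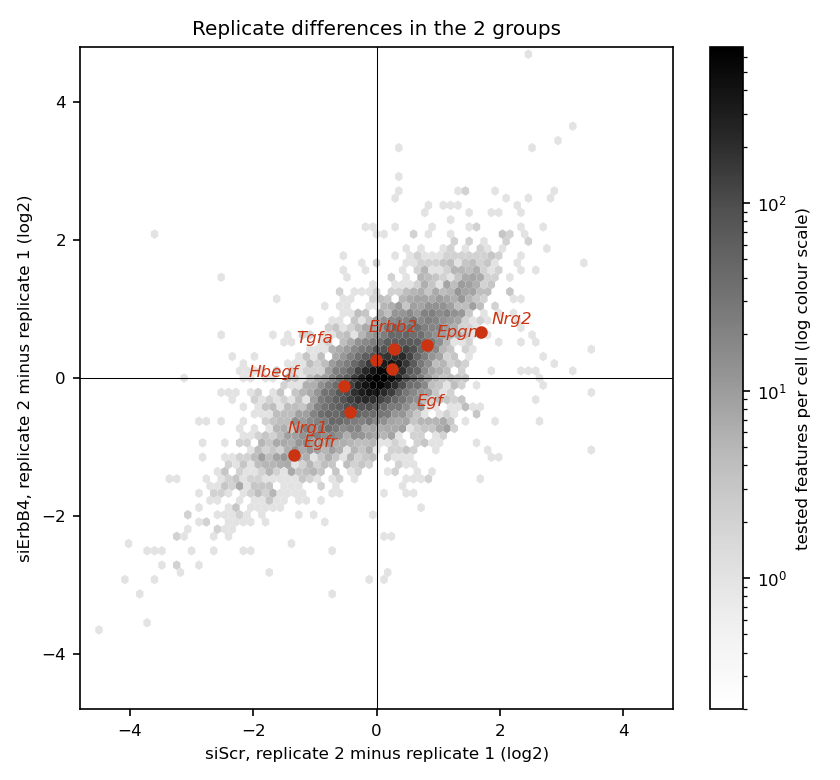
Difference between the 2 arrays of a group (replicate 2 minus replicate 1, log2) in siErbB4 against that in siScr, with all 20726 features as shaded cells (log colour scale) and the 8 members tested in red. Egfr lies at -1.35 and -1.12, in the lower left of the cloud, and Nrg2 at 1.69 and 0.66.

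Markers of several cell types were split by the same number. Of the 10 fibroblast genes 9 were tested, and at 8 of them both replicate 1 arrays lay above both replicate 2 arrays. Their summed level, in multiples of each array's 75th percentile, was 38.7 and 8.95 in siScr replicates 1 and 2 and 22.4 and 6.91 in siErbB4 replicates 1 and 2, and the tenth gene, Tcf21, was well above background on 2 arrays. Smooth muscle genes, 4 of 5 tested, summed to 541, 248, 429 and 241 in the same order, and neural genes, 4 of 6 tested, to 13.7, 6.02, 8.998 and 3.61. The 12 cardiomyocyte genes went the other way at 11 of 12, with sums of 1178, 1610, 1148 and 1522. The 5 endothelial genes tested of 7 summed to 3.38, 4.51, 3.31 and 3.49, a sum made up mostly of Kdr, while both replicate 1 arrays lay above both replicate 2 arrays at 3 of them and below at 1. Cdh5, for instance, gave -1.88 in siScr and -1.14 in siErbB4 as replicate 2 minus replicate 1. In the same order of arrays 6 epithelial genes summed to 54.2, 59.4, 59.7 and 67.8. The 3 macrophage genes tested of 5 summed to 1.23, 2.06, 1.11 and 1.84, but single genes went opposite ways. As replicate 2 minus replicate 1, Lyz2 gave 2.997 in siScr and 3.48 in siErbB4, Adgre1 -3.23 and -1.46, and Csf1r 0.10 and -0.02. For neural and smooth muscle genes, both replicate 1 arrays lay above both replicate 2 arrays at 1 and 2, and below at 1 each. Emcn and Tie1, endothelial markers, and Map2 and Pax6, neural markers, did not pass the filter. The part of these cells in the replicate differences of Egfr, Nrg1 and the other members was not tested.

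The genes whose 4 values, each minus the gene's own mean, lay closest to those of Egfr were searched among 14497 other named genes well above background on all arrays. The closest were Amer2 (root mean square difference 0.03), Ptgs2, the inducible prostaglandin synthase (0.04), the ephrin ligand gene Efnb2 (0.05), 1110032F04Rik (0.05) and the adhesion receptor gene Adgrg6 (0.06). Amer2, for instance, was at -2.87 (siScr replicate 1), -4.16 (siScr replicate 2), -2.90 (siErbB4 replicate 1) and -4.00 (siErbB4 replicate 2). With 4 arrays, such likeness rests on the 2 replicate numbers.

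Of the ERBB ligands outside the set, Areg, Ereg, Btc, Nrg3 and Nrg4, none was bright enough to test. Areg and Nrg3 were not well above background on any array, Ereg and the brighter Nrg4 probe only in siScr replicate 1, and Btc only in siErbB4 replicate 2. Areg, the amphiregulin gene, was at -7.42 and -8.48 in siScr and -6.46 and -6.92 in siErbB4, so its groups did not overlap, but all 4 values were below the background criterion. Ereg, the epiregulin gene, was at -5.66 and -7.22 in siScr and -7.14 and -8.68 in siErbB4.

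The wider pathway was read through 76 genes in 6 groups, of which 73 were tested. None was called, beside 0% of all features, and the median difference was -0.00195, with 36 genes positive and 37 negative. At 31 of the 73, or 42.5%, the groups did not overlap, against 29.0% of all features.

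Ligand precursors are released from the cell surface by ADAM proteases, and 10 of 11 genes of this step were tested (median -0.06). The lowest p were those of Ncstn, a subunit of gamma-secretase, at -0.56 (SE 0.26), and Furin, a proprotein convertase, at -0.29 (SE 0.14). Of the 5 ADAM genes of the list, looked up after their values were seen, Adam17 and Adam10 gave 0.25 (SE 0.19) and 0.24 (SE 0.16), and Adam12, Adam19 and Adam9 gave -0.32 (SE 0.50), -0.10 (SE 0.56) and -0.10 (SE 0.19).

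Active receptors recruit adaptors and kinases, and all 19 such genes were tested (median 0.03). Src, a kinase at the membrane, was at -0.52 (SE 0.19). Gab2, an adaptor that links receptors to PI3K, passed the filter only through the siErbB4 arrays, so its p is not given. Its levels were -7.22 and -7.78 in siScr and -6.12 and -6.22 in siErbB4. Neither siScr array had it well above background, so only a bound on the ratio of the group means, 1.21, can be given. This bound holds no error for the spread between arrays. The gene was also named for its low p and kept through its siErbB4 signals, so no direction is read from it. Such a bound sets the siErbB4 mean against, per siScr array, the higher of the probe's own signal and the lowest signal flagged well above background.

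The RAS to ERK genes, all 10 tested, had a median of -0.07, with the kinase gene Map2k2 at -0.29 (SE 0.14) and Hras at -0.38 (SE 0.21). The AKT branch, all 10 tested, had a median of 0.06, with Pdpk1, the kinase that activates AKT, at 0.32 (SE 0.17) and Rps6kb1 at 0.18 (SE 0.14).

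Receptors are then removed or silenced, and all 18 genes of this step were tested (median -0.03). Socs4, which promotes breakdown of Egfr, gave 0.35 (SE 0.13), and Errfi1, an inhibitor of the ERBB kinases, gave 0.26 (SE 0.15). Both were named for the lowest p of the list, a choice that favours groups without overlap. The groups did not overlap at 9 of the 18 genes, these among them, beside 29.0% of all features. The ubiquitin ligase genes Itch, Wwp1 and Nedd4, whose products bind Erbb4 and which were looked up after their values were seen, were at 0.16, -0.15 and -0.21 (SE 0.13, 0.13 and 0.16). Of 8 ERBB partners and chaperones 6 were tested (median 0.00395), with Yap1, a coactivator that binds the cleaved part of Erbb4, at 0.16 (SE 0.14) and Erbin at 0.17 (SE 0.18). Muc1 and Muc4 were not well above background on any array.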

How the data were processed

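Total RNA (200 ng per labelling) was read on 4 single-channel Cy3 arrays. Per the file headers and the submitters' processing notes, the deposited intensity of each spot came from Agilent Feature Extraction 10.7.1.1, background-subtracted and detrended within the array; raw median intensity and flags were deposited beside it. The log2 values that the authors deposited as a table were set against the scanner values and matched the scaling used here (correlation 1, largest difference 0.00328).

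Of 44397 spots, 1377 control spots and the outlier-flagged spots (131 to 179 an array) were left out. Log2 signals of repeat spots were averaged, and the array's 75th percentile was subtracted. The filter kept 25690 probes, those flagged well above background on both siScr or both siErbB4 arrays. RefSeq accessions named 27508 probes through a table of assembly GRCm38.p6; the array's annotation names another build, so no coordinates are given. The brightest kept probe stood for a gene. Differences were tested in R 4.3.3 with limma 3.58.1 (lmFit, eBayes, two-sided, Benjamini-Hochberg over 20726 features, threshold 0.05; 2 residual degrees of freedom). Erbb3 and Erbb4 come from the fit with no filter.

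The rule for named genes took all members and other ligands, the 2 genes with the lowest p of each pathway list and the 5 genes closest to the most variable member. The members and lists were chosen with earlier results of these data known. Alternatives are given in the closing section.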

Additional observations from a re-analysis of the deposited data

How the results depend on the processing

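No setting tried called a feature, a member or a pathway gene between the groups: normexp background correction with an offset of 50 on the raw median signals in place of the processed signal, quantile normalization, the mean of a gene's probes, no filter, a filter on all 4 arrays, outlier spots kept, the authors' value table, the replicate block and each array left out (0 called in every fit by limma; 177 to 1547 features at an unadjusted p under 0.05). Of 117 values of single members under these settings, 101 kept their sign and 16 changed it. Many of them could not change. The values with no filter, with the filter on all 4 arrays and with the replicate block repeat the main value exactly. The mean of a gene's probes does so for every member but Egfr, and the authors' table holds the same data. The count is therefore no measure of stability. Tgfa and Erbb3 kept a negative sign in all theirs (-0.29 to -0.03 and -1.13 to -0.14). Their groups did not overlap, so leaving out 1 array could not change the sign. Erbb3 was also not well above background on any array, so no direction is read from this. With normexp, Nrg2 turned to -0.035 and Egf to -0.0061, and with the mean of its probes Egfr turned to -0.27. Leaving out single arrays gave -0.58 to 0.76 for Egfr, -0.28 to 0.14 for Erbb2, -0.30 to 0.20 for Nrg1, -0.31 to 1.37 for Nrg2, -0.39 to 0.13 for Hbegf, -0.12 to 0.13 for Egf, -0.55 to 0.26 for Epgn and -1.89 to 0.53 for Erbb4. With 2 arrays a group, leaving out 1 puts the other in place of the group mean, so these ranges restate the replicate differences. What lies behind those differences was not tested. Features that differed by 1 or more in the same direction between the replicates of both groups numbered 670, but 289 with normexp on the raw median signals, the cause of which was not tested, and 1197 with no filter, where more features enter. With normexp, Egfr still differed by -1.18 in siScr and -1.02 in siErbB4. Nrg1 (-0.45 and -0.47) and Erbb2 (0.27 and 0.39) also stayed near their values. The dim Nrg2 fell to 0.51 and 0.11 and Epgn to 0.17 and 0.21, and Tgfa turned positive in siScr, at 0.14.

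The labels do not say that the replicate number pairs samples. The deviations of same-numbered arrays from their group means correlated at 0.679 over features. In the fit with a replicate block, limma called 0 features and gave 1547 an unadjusted p under 0.05. In that fit the 95% interval of Egfr was -0.25 to 0.43, that of Nrg1 -0.36 to 0.26 and that of Epgn -0.53 to 0.23. No p is given for Nrg2, which passed the filter only through the siErbB4 arrays. Signal over background limits Erbb3, Erbb4, Nrg2 and Epgn.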

Other observations

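The repeat spots allow the scanner software's own error to be set against measured spread. For Egfr that error averaged 10.002% to 10.021% of the signal, while the coefficient of variation over the 10 spots was 2.81% to 4.51%. For Erbb2 it was 10.002% to 10.004%, against 0.730% to 3.55% over the 8 to 10 spots used. For the dimmer Egf the error was 10.467% to 10.684% and the spots varied by 6.32% to 9.77%, and for Tgfa the error was 11.94% to 13.95% and the spots varied by 7.42% to 11.0%. The spots of a probe share the RNA sample and the labelling, so their spread covers neither of these.

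The log2 values of the dimmest probes come from signals that the software had replaced. The negative-control spots had a median background-subtracted signal of -4.90 to -3.92 on the 4 arrays, yet a median processed signal of 2.10 to 2.62.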
